A study of Drosophila melanogaster with 8 samples.

Results

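The genes examined here encode the stress sensors, transcription factors and chaperones of the endoplasmic reticulum (ER) in the intestine of Drosophila melanogaster. They were chosen by name, with earlier results of these data known. Of the 9 listed genes, 8 had a row in the deposited table of 7671 genes. Among these, Ire1, PEK, Atf6 and crc sense ER stress or carry its signal to the nucleus. Hsc70-3, Gp93, Pdi and Cnx99A fold proteins inside the ER. The other listed gene, Xbp1, was not analysed here. The intestines came from 7-day-old mated females kept for 24 hours on calorie-restricted food, which was the maintenance food diluted to 0.25 of its strength. The treated flies had 0.1 M N-acetyl-D-glucosamine (GlcNAc) in this food and the control flies had none, with 4 independent samples of each, and the comparison asks what feeding the hexosamine biosynthesis pathway does to gene expression in the midgut. Both groups shared one genotype, a stock for MARCM clones that carried UAS-mCD8::GFP with hsFLP, tub-GAL4 in 1 copy and, over FRT82B, the chromosome FRT82B tub-GAL80. The labels call the treatment glucosamine in 1 field and the source whole larvae in another, while the titles, the tissue field and the methods of the study name GlcNAc and adult intestines, which are used here. Whether the 4 samples of a group came from separate cages or days is not given, so p-values measure the spread between these samples.

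Proteins that are secreted or sit in membranes are folded in the ER, and a load of unfolded protein there sets off the unfolded protein response. Ire1, PEK and Atf6 span the ER membrane and are held inactive while the chaperone BiP, encoded by Hsc70-3, is bound to them. Once active, Ire1 splices the mRNA of Xbp1, PEK phosphorylates the translation factor eIF2alpha and so favours translation of crc, the fly ATF4, and Atf6 is cut to release a transcription factor. The response raises the transcription of ER chaperones, and in mammals the spliced form of Xbp1 also activates genes of the hexosamine pathway. The fly gut is rich in cells that secrete digestive enzymes, and intestinal stem cells respond to ER stress by changing their rate of division.

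The files hold log2 CPM, reads per gene scaled to the size of the library, and levels are given here in CPM after the log was undone in each library. Each library held between 8839877 and 10326189 reads on the 7671 genes. Log2 fold changes (GlcNAc minus control), their standard errors and adjusted p-values came from limma fitted to all 7671 genes, with Benjamini-Hochberg adjustment and a threshold of 0.05. Of all genes, 15.3% passed this threshold, 8.75% with higher and 6.6% with lower values on GlcNAc. With 4 libraries against 4, the smallest p that a two-sided exact permutation test can give is 0.0286.

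The 4 ER chaperone genes, the sensor PEK and the factor crc rose on GlcNAc, and the sensors Ire1 and Atf6 did not pass the threshold. Of the 8 genes, 6 passed the threshold, all 6 of them with higher values on GlcNAc, against 8.75% of all genes. For these 6 every GlcNAc library was above every control library, which held for 11.2% of all genes. Gp93 and Hsc70-3 were more than 2-fold higher (2.25-fold and 2.07-fold), PEK, Cnx99A, Pdi and crc rose by 1.18-fold to 1.38-fold, and Ire1 and Atf6 did not pass. The median log2 fold change of the 8 genes was 0.38, beside 0.01 for all genes tested. None of the 8 was lower in this fit, so 0 were lower at an unadjusted p of 0.05, and 0 by voom. Atf6 had only 0.01, and -0.0067 with median centring.

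**Figure D1:**
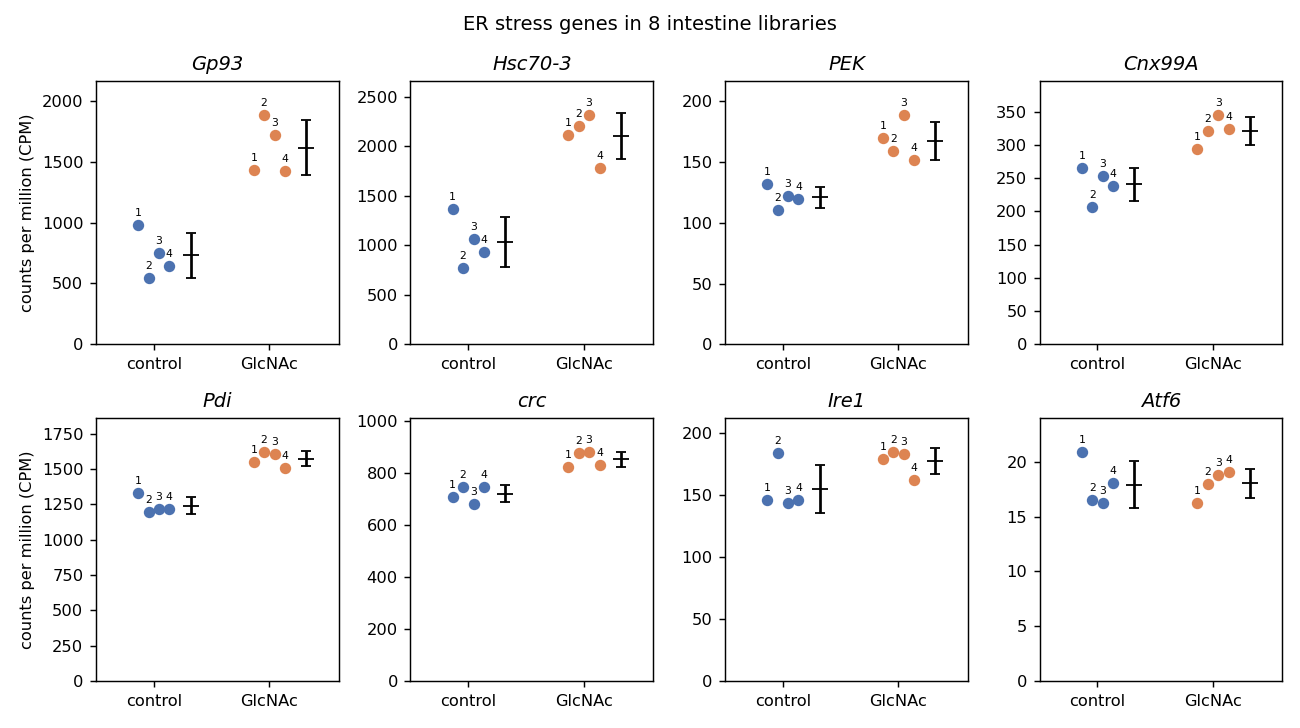
Expression (CPM, vertical axes from 0, a separate scale for each gene) of the 8 ER stress genes in the 4 control and 4 GlcNAc libraries. Points are libraries with their replicate numbers, and the bars beside them are the mean and SD. The groups are apart for the first 6 genes (for Gp93 the highest control was 980.4 CPM and the lowest GlcNAc library 1423 CPM) and overlap for Ire1 and Atf6.

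The tissue is a mixture of cells, so that fewer cells of a type and less RNA per cell cannot be told apart. The marker counts past the threshold stand beside 8.75% of all genes higher and 6.6% lower. The tissue label fits the marker genes: the 10 measured enterocyte markers of 13 listed summed to 85743 to 102899 CPM in the control libraries and to 73002 to 79956 CPM in the GlcNAc libraries, with 2 lower (the proteases Jon25Bi and Jon99Cii) and 0 higher past the threshold. At an unadjusted p of 0.05, 0 of the 10 were higher and 4 were lower by limma, and 6 were lower by voom. The median log2 fold change of the 10 was -0.34. The 9 measured enteroendocrine markers of 10 summed to 274 to 343 CPM in control and 323 to 366 CPM on GlcNAc, with 3 higher (AstA, Dh31 and CCHa2) and 0 lower. By limma, 5 of the 9 were higher and 0 lower at an unadjusted p of 0.05. The 6 progenitor markers summed to 127 to 149.7 CPM in control and 129 to 165 CPM on GlcNAc, with 0 past the threshold and 0 at an unadjusted p of 0.05, and the 11 visceral muscle markers to 1219.5 to 1717 CPM in control and 1065 to 1482 CPM on GlcNAc, with 1 lower (Act57B). Malpighian tubule markers, of which 4 of 7 were measured, had 2 higher (bib and Best2) and sums of 103 to 154 CPM in control and 115 to 191 CPM on GlcNAc, while Ncc69 (-0.22) was lower at an unadjusted p of 0.05 by limma and by voom but did not pass the adjusted threshold. Of the ovary markers 2 of 9 were measured, at no more than 3.12 CPM in all, and the fat body markers (4 of 7) varied from 29.7 to 738 CPM between control libraries. Of the enterocyte markers 8 encode digestive proteases, which made up 98.7% to 99.0% of the sum, and the enterocyte factor nub had 284 ± 35.4 CPM in control and 328 ± 32.4 CPM on GlcNAc (SD, n = 4). The part of these cell types in the results below was not tested.

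Hsc70-3 (FBgn0001218) encodes BiP, the Hsp70 chaperone of the ER lumen, and lies on the minus strand of chromosome X from 11801696 to 11807117 (BDGP6 assembly). Its level was 1366, 768, 1059.7 and 931 CPM in control replicates 1 to 4 and 2115, 2205, 2311 and 1775 CPM in GlcNAc replicates 1 to 4. The lowest GlcNAc library stood above the highest control library, and the controls were spread over a 1.78-fold range. The mean rose from 1031 ± 253 to 2101 ± 232 CPM (SD, n = 4), which is 1.05 on the log2 scale with a standard error of 0.16 (limma, adjusted p = 0.00181). Gp93 (FBgn0039562), on the plus strand of 3R from 27948711 to 27952151, encodes the Hsp90 chaperone of the ER. It had 980.4, 546, 752 and 643 CPM in control replicates 1 to 4 and 1430.4, 1883, 1725 and 1423 CPM in the GlcNAc replicates. Here too the groups did not overlap, and the controls spread over a 1.80-fold range. The mean rose from 730.1 ± 187 to 1615 ± 227 CPM (SD, n = 4), which is 1.17 on the log2 scale with a standard error of 0.17 (limma, adjusted p = 0.00132). Over all 7671 genes, the rise of Gp93 ranked 122 and that of Hsc70-3 ranked 147. Among the 307 genes with a mean of at least 500 CPM, Gp93 had the 8th and Hsc70-3 the 10th largest rise.

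In the control libraries the levels of these chaperones moved together. The CPM of Gp93 was 0.718, 0.711, 0.709 and 0.690 of that of Hsc70-3 in control replicates 1 to 4, while both genes varied nearly 1.8-fold between the same libraries. The coefficient of variation of this ratio over the controls was 1.67%, and the counting error of the ratio alone was 1.35% to 1.87% per control library. On GlcNAc the ratio was 0.676, 0.854, 0.746 and 0.801, with a coefficient of variation of 9.88%, beside a counting error of 1.01% to 1.10%. The mean ratio went from 0.707 ± 0.0118 to 0.7695 ± 0.0760 (SD, n = 4), a difference that did not pass an exact permutation test (two-sided, p = 0.2). The spreads of the ratio in the groups were not compared by a test.

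**Figure D2:**
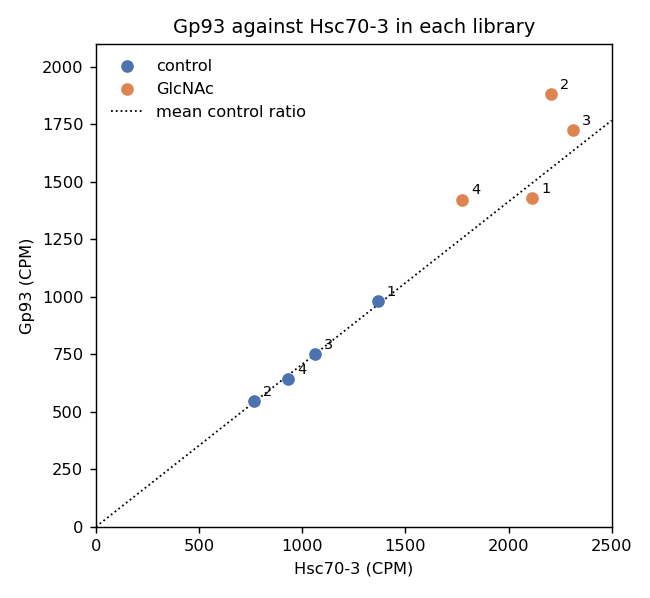
CPM of Gp93 (vertical axis) against CPM of Hsc70-3 (horizontal axis) in each library, with replicate numbers. The dotted line has the mean control ratio of 0.707. The 4 controls lie along it from replicate 2 to replicate 1, and the 4 GlcNAc libraries lie beyond the controls on both axes and scatter around the line.

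Pdi and Cnx99A rose less. Pdi (FBgn0014002), on the minus strand of 3L from 15137738 to 15142840, encodes protein disulfide isomerase, which forms and rearranges disulfide bonds. It had 1333, 1199, 1217 and 1219 CPM in control replicates 1 to 4 and 1549.8, 1622, 1611 and 1509.5 CPM in the GlcNAc replicates. The groups did not overlap, and the controls spread over a 1.11-fold range only. The mean went from 1242 ± 61.4 to 1573 ± 52.8 CPM (SD, n = 4), which is 0.34 on the log2 scale with a standard error of 0.07 (limma, adjusted p = 0.00889). Cnx99A (FBgn0015622), on the minus strand of 3R from 29315254 to 29319644, encodes calnexin, a membrane chaperone that binds sugar chains on folding glycoproteins. It had 264, 206, 253 and 238 CPM in the controls and 294, 320.1, 344 and 324 CPM on GlcNAc, again without overlap. Its log2 fold change was 0.42 with a standard error of 0.08 (limma, adjusted p = 0.00812). Together the 4 chaperones took 3244 ± 521 CPM in control and 5610 ± 484 CPM on GlcNAc (SD, n = 4).

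Of the sensors, PEK changed most. PEK (FBgn0037327), on the minus strand of 3R from 5458563 to 5464753, encodes the eIF2alpha kinase of the ER. It had 132, 110.2, 122 and 119.5 CPM in control replicates 1 to 4 and 170.2, 159, 189 and 152 CPM in the GlcNAc replicates. All GlcNAc libraries were above all controls, with a log2 fold change of 0.47 with a standard error of 0.08 (limma, adjusted p = 0.00363). Ire1 (FBgn0261984), the kinase and endonuclease on the minus strand of 3R from 19853908 to 19861291, had 146, 184, 143 and 146 CPM in the controls and 179, 185, 183 and 162 CPM on GlcNAc. Control replicate 2 lay among the GlcNAc libraries and the other 3 controls below all of them. The log2 fold change was 0.20 (95% interval 0.0082 to 0.40, adjusted p = 0.163), and it passed the threshold without control replicate 2 (0.29, adjusted p = 0.0185) or when libraries were scaled by their totals (0.26, adjusted p = 0.0446).

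Atf6 (FBgn0033010), on the plus strand of 2R from 5144733 to 5154756, was the sensor with the fewest reads, from 145 to 200 per library. It had 20.9, 16.5, 16.2 and 18.0 CPM in control replicates 1 to 4 and 16.2, 18.0, 18.8 and 19.1 CPM in the GlcNAc replicates. The groups overlapped fully, and the log2 fold change of 0.01 had a 95% interval from -0.21 to 0.24 (adjusted p = 0.957 from limma). Its sign changed with median centring and when any of 4 libraries was left out, so no direction can be given. Of its 4085 exonic bases, 396 lie over an INE-1 element on the same strand.

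The transcription factor crc (FBgn0000370), the fly ATF4, lies on the plus strand of 2L from 21310866 to 21319527. It had 707, 744, 679.5 and 746 CPM in control replicates 1 to 4 and 820.4, 874, 879 and 829.9 CPM in the GlcNAc replicates. The groups did not overlap, but they lay close, with a log2 fold change of 0.24 with a standard error of 0.06 (limma, adjusted p = 0.0267). The call was lost without control replicate 1 (adjusted p = 0.0672) or 3 (0.0704) and without GlcNAc replicate 2 (0.0576), 3 (0.0681) or 4 (0.0579). In the Ensembl annotation 2515 of the 3423 exonic bases of crc are shared with CG46314 on the same strand, which makes its level uncertain. The protein of crc is set largely by translation, which these libraries do not measure.

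**Figure D3:**
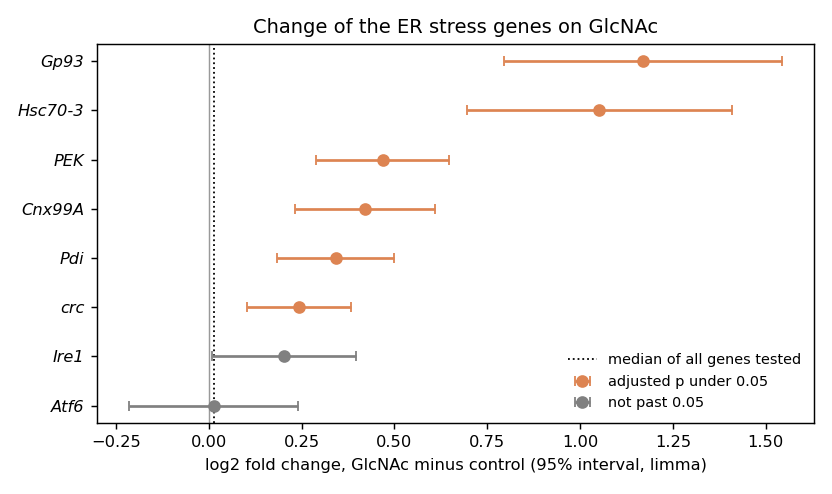
Log2 fold change (GlcNAc minus control, horizontal axis) of the 8 ER stress genes with 95% intervals from limma. Orange points passed an adjusted p of 0.05 and grey points did not, and the dotted line is the median of all genes, 0.01. Gp93 (1.17) and Hsc70-3 (1.05) lie to the right of the other genes, and the interval of Atf6 spans 0 on both sides.

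The size of the changes was also compared between genes, by their ratios within each library. Ratios between genes do not depend on scaling between libraries, and all 28 pairs of the 8 genes were compared. For each of the 12 pairs of Gp93 or Hsc70-3 with the other 6 genes, the 4 GlcNAc ratios lay above the 4 control ratios (p = 0.0286 for each by the exact permutation test, the smallest it can give, and 0.0533 when adjusted over the 28 pairs, which does not pass 0.05). The CPM ratio of Hsc70-3 to Pdi went from 0.825 ± 0.163 to 1.33 ± 0.110 (SD, n = 4), or by 0.71 as a log2 value, and that of Gp93 to crc from 1.02 ± 0.288 to 1.89 ± 0.205, a change of 0.93. PEK, Cnx99A and Pdi also separated from Atf6, with changes of 0.45, 0.41 and 0.33 and the same p. The ratios among PEK, Cnx99A, Pdi, crc and Ire1 overlapped between the groups in all 10 pairs.

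Levels per kilobase of exon allow for differences in gene length. The control libraries held Pdi at 534 ± 26.4, Hsc70-3 at 287 ± 70.6, Gp93 at 257 ± 65.7 and crc at 210.1 ± 9.34 CPM per kilobase (SD, n = 4). The place of crc is uncertain, since 2515 of its 3423 exonic bases are shared with CG46314 on the same strand. The levels of crc overlapped with those of Hsc70-3 and Gp93 across control libraries, while within each control library Gp93 was below Hsc70-3, at 0.872 to 0.907 of its level per kilobase. Cnx99A followed at 86.0 ± 9.07, then Ire1 at 38.3 ± 4.83, PEK at 24.8 ± 1.83 and Atf6 at 4.38 ± 0.524 CPM per kilobase. On GlcNAc the means were Pdi at 676 ± 22.7, Hsc70-3 at 585 ± 64.5, Gp93 at 568 ± 79.9 and crc at 249 ± 8.79 CPM per kilobase. Gp93 and Hsc70-3 were not ordered there, since Gp93 was the higher in 2 of the 4 libraries. The chaperones of the lumen were thus each present at more than the level of any sensor, in both conditions.

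The other genes of the ER were read from 7 lists, which hold the 8 genes too. In all, 88 genes of these lists were tested, 38 of them were higher and 4 lower past the threshold, and their median log2 fold change was 0.20. Without the 8 genes, 32 of 80 were higher (40.0%) and 4 were lower (5%), beside 8.75% and 6.6% of all genes, with a median of 0.19 beside 0.01. The lists were drawn up with earlier results of these data known, so their counts are a description.

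Genes for folding and quality control made up the largest part. Of 19 tested, 16 rose and 0 fell past the threshold, beside 8.75% and 6.6% of all genes. At an unadjusted p of 0.05, 0 fell by limma and by voom, and the median was 0.58. The largest rise was that of CG10420, which encodes the fly Sil1, an exchange factor that releases nucleotide from BiP. It had 43.2, 19.3, 34.6 and 25.2 CPM in control replicates 1 to 4 and 128, 133, 176 and 119 CPM in the GlcNAc replicates, a log2 fold change of 2.24 with a standard error of 0.22 (limma, adjusted p = 0.000154). P58IPK, a J-domain partner of BiP, rose from 216 ± 47.1 to 432 ± 50.2 CPM (log2 fold change 1.02, adjusted p = 0.00121), and ERp60, a disulfide isomerase, from 546 ± 68.2 to 876 ± 60.5 CPM (SD, n = 4; log2 fold change 0.69, adjusted p = 0.00115). Calreticulin (Calr, log2 fold change 0.59), the J-domain protein shv (0.62), the oxidase Ero1L (0.46) and Ugt (0.58), which returns sugar to misfolded glycoproteins so that calnexin can bind them again, also rose. The 3 that did not pass were Cnx14D (0.63, with the widest standard error of the list, 0.31), prtp (0.19) and the glucosidase GCS1 (-0.07).

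**Figure D4:**
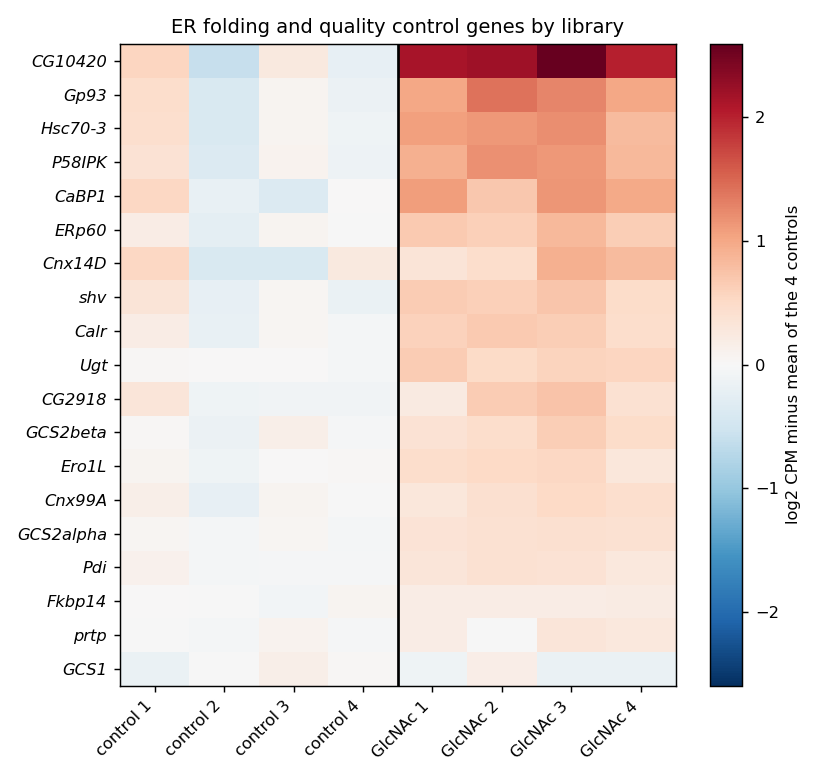
Log2 CPM minus the mean of the 4 controls (colour scale) for the 19 genes of ER folding and quality control (rows, ordered by log2 fold change) in the 8 libraries (columns). The GlcNAc columns are red for nearly every gene, darkest for CG10420, and among the controls replicate 1 is red and replicate 2 blue for many genes.

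The control libraries came in the same order for part of these genes. Hsc70-3, Gp93, Cnx99A and PEK were all highest in control replicate 1, then 3, then 4, and lowest in replicate 2. This order was found for 9 of the 19 folding genes and for 6.36% of all genes. Control replicate 1 was the highest control for 14 of the 19 and control replicate 2 the lowest for 14 of the 19, beside 24.4% and 28.3% of all genes. Among the 8 genes, Ire1 was highest and not lowest in replicate 2. On GlcNAc, replicate 4 was the lowest library for Gp93, Hsc70-3, PEK, Pdi and Ire1, and the highest for Atf6. The folding genes share their libraries, so these counts are a description.

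Most genes of the complex that attaches N-linked sugar chains, which are built in part from UDP-GlcNAc, rose as well. Of 7 genes of the oligosaccharyltransferase complex, 6 were higher and 0 lower, beside 8.75% and 6.6% of all genes. At an unadjusted p of 0.05, 0 were lower by limma and by voom, and the median was 0.37. Ost48 rose from 157 ± 15.4 to 221 ± 11.4 CPM (SD, n = 4; log2 fold change 0.50, adjusted p = 0.00176 from limma), CG33303 by 0.49 (adjusted p = 0.000581) and l(2)k12914 by 0.48 (adjusted p = 0.000527), and OstStt3, a catalytic subunit and the most highly expressed of the list, by 0.31 (adjusted p = 0.0122). CG1518, the other catalytic subunit, had 34.7 ± 1.41 CPM in control and 35.0 ± 1.33 CPM on GlcNAc (SD, n = 4), a difference of 0.02 in log2 (adjusted p = 0.916 from limma).

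Genes for entry into the ER did not share this pattern. Of 19 genes for translocation and signal peptide processing, 3 were higher and 2 lower, beside 8.75% and 6.6% of all genes. The median was 0.03, beside 0.01 for all genes. The signal peptidase subunits Spase12 (log2 fold change 0.50, adjusted p = 0.000575 from limma) and twr (0.41, adjusted p = 0.00185) rose, as did Sec63 (0.23), while Srp54k (-0.21) fell and TRAM, a protein of the translocation channel, fell from 120.0 to 94.0 CPM (log2 fold change -0.35 with a standard error of 0.07, adjusted p = 0.00587). Sec61alpha, the channel itself, had 619 ± 30.9 CPM in control and 589 ± 9.98 CPM on GlcNAc (SD, n = 4), with overlapping groups. ER-associated degradation moves misfolded proteins out for destruction. Of 12 such genes, 3 were higher and 1 lower, beside 8.75% and 6.6% of all genes, with a median of 0.04. The higher ones were Der-1 (0.45), sip3 (0.34), the fly ubiquitin ligase Hrd1, and Herp (0.33), and the lower one was CG5823 (-0.20). TER94, the ATPase that extracts proteins from the membrane, had 642 ± 54.8 and 578 ± 50.1 CPM, with overlapping groups.

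In the COPII list, for vesicles that leave the ER, 3 of 14 were higher and 1 lower, beside 8.75% and 6.6% of all genes. The median was 0.18, and 6 were higher with library totals. Sec22, a SNARE of transport between ER and Golgi, rose from 99.3 ± 10.9 to 163 ± 15.5 CPM (SD, n = 4; log2 fold change 0.71, adjusted p = 0.000671 from limma), and the cargo receptor bai (0.32, adjusted p = 0.0107) and the coat protein Sec24CD (0.32, adjusted p = 0.0299) also rose. The p24 protein gene loj fell by 0.34 on the log2 scale (adjusted p = 0.0452), with GlcNAc replicate 3 among the controls. Sar1, the GTPase that starts the coat, had a log2 fold change of 0.08 (adjusted p = 0.497).

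**Figure D5:**
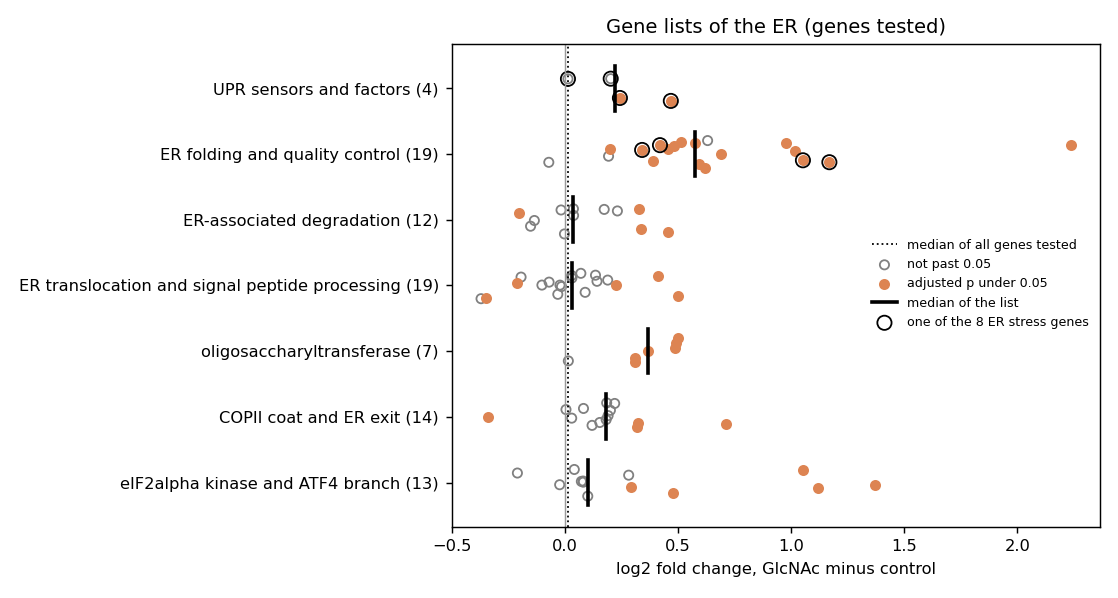
Log2 fold change (GlcNAc minus control, horizontal axis) of each gene in 7 lists of ER genes, with the number tested in brackets. Filled points passed an adjusted p of 0.05, black rings mark the 8 ER stress genes, thick bars are list medians and the dotted line is the median of all genes. The medians of folding (0.58) and oligosaccharyltransferase (0.37) genes stand to the right of those of degradation (0.04) and translocation (0.03).

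The list for the branch of eIF2alpha and ATF4, which PEK shares with the kinase Gcn2, held 13 genes. Of these, 5 rose and 0 fell, beside 8.75% and 6.6% of all genes. At an unadjusted p of 0.05, 0 fell by limma and by voom, and the median was 0.10. Whether the rises follow from PEK was not tested. Thor, the fly 4E-BP, which restrains translation and is a target of crc as well as of insulin signalling, had 367, 365, 244 and 324 CPM in control replicates 1 to 4 and 831, 601, 631 and 619 CPM in the GlcNAc replicates. Its log2 fold change was 1.05 with a standard error of 0.14 (limma, adjusted p = 0.00101), and the groups did not overlap. AsnS, asparagine synthetase, rose from 23.8 ± 1.29 to 52.4 ± 10.9 CPM (log2 fold change 1.12, adjusted p = 0.000378), and Nmdmc, a mitochondrial enzyme of folate metabolism, from 10.8 ± 1.39 to 29.1 ± 11.0 CPM (SD, n = 4; log2 fold change 1.37, adjusted p = 0.00286). PPP1R15, a phosphatase subunit that reverses the phosphorylation of eIF2alpha, rose by 0.48 (adjusted p = 0.00335 from limma). Of the eIF2B subunits, eIF2B-alpha rose by 0.29 (adjusted p = 0.0363 from limma) and the others did not pass the threshold. Gcn2, the other eIF2alpha kinase, had a log2 fold change of 0.08 (adjusted p = 0.674). Sesn (-0.21, adjusted p = 0.220 from limma) and trbl (-0.02, adjusted p = 0.870) had negative values and did not pass the threshold. The log2 fold change was above 0 for 11 of the 13.

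Relatives of the ER chaperones in other compartments were chosen once values were known. Hsc70-5, the Hsp70 of mitochondria, had 353 ± 16.8 CPM in control and 362 ± 27.7 CPM on GlcNAc, and Trap1, the Hsp90 of mitochondria, 104 ± 5.42 and 96.0 ± 4.48 CPM (SD, n = 4). Neither passed the threshold (adjusted p = 0.818 and 0.251 from limma). The cytosolic Hsp90 gene Hsp83 ran from 884 to 2273 CPM in control and from 684 to 1987 CPM on GlcNAc, with full overlap. The CPM ratio of Hsc70-3 to Hsc70-5 rose from 2.90 ± 0.575 to 5.82 ± 0.654, and that of Gp93 to Trap1 from 7.05 ± 1.94 to 16.8 ± 1.96 (SD, n = 4). For both ratios, and for that of Gp93 to Hsp83, the groups did not overlap, which is a description with no test, since the genes were chosen with these values in view. The fourth ratio, to Hsc70-4, was not read further, since this gene had only 7.37 ± 2.00 CPM in control.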

How the data were processed

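RNA-seq libraries of intestines from 4 control and 4 GlcNAc samples were analysed, with groups and replicate numbers taken from the sample titles. The authors trimmed single-end reads with Trimmomatic, mapped them with TopHat 2.1.0 to the FlyBase genome, counted exonic reads by strand with HTSeq and kept genes above 1 CPM in at least 3 replicates of a condition. The authors deposited log2 CPM values with an offset of 0.5 read and scaled library sizes. The offset understates the change of low genes. The same table holds the authors' log2 fold changes, test statistics and p-values, which were not used. Whole reads could be recovered for 100% of 61368 values (tolerance 0.1 read) and were used for depths and for alternatives.

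The log2 CPM values were fitted with limma 3.58.1 in R 4.3.3 (lmFit, eBayes with trend, condition as the only term) and tested on simulated data. Members and lists were chosen with earlier results of these data known. Besides the 8 members, up to 3 genes of each list past the threshold with the largest change and a mean of at least 5 CPM were named, with the most highly expressed gene of the list. The other list genes, the marker genes and the chaperones of other compartments were named after their values were seen. Positions and exonic lengths (union of exons) came from Ensembl release 115, of the same BDGP6 assembly as the FlyBase release used by the authors, though the gene models may differ. 7 of the 8 members matched by ID and Pdi by name. Sequences were not analysed here. The alternatives were library totals, median centring, a filter at 10 CPM, a pseudocount of 2 CPM, voom, a replicate block and each library left out.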

Additional observations from a re-analysis of the deposited data

Results flagged for a closer look

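In 2 of the 16 groups of 4 libraries (8 genes in 2 conditions), 1 library stood apart from the other 3 by Dixon's criterion, which chance alone gives in about 1 of 20 groups. Ire1 in control replicate 2 was at 184 CPM, with the gap to the next control covering 0.933 of the range. Pdi in control replicate 1 was at 1333 CPM, with a gap of 0.844 of the range, and still lay below every GlcNAc library.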

How the results depend on the processing

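Gp93, Hsc70-3, PEK, Cnx99A and Pdi kept their direction and their call under all 14 alternatives run. When single libraries were dropped, log2 fold changes ran from 1.04 to 1.32 for Gp93, 0.92 to 1.20 for Hsc70-3, 0.41 to 0.51 for PEK, 0.35 to 0.47 for Cnx99A and 0.32 to 0.38 for Pdi. For crc it ran from 0.22 to 0.26, with the call lost in 5 of these fits, and for Ire1 from 0.17 to 0.29. Atf6 had -0.0067 with median centring and ran from -0.032 to 0.090 with libraries left out. The number of the 8 genes past the threshold ran from 5 to 7, and that of all ER lists from 34 to 44, beside 42. The calls over all genes ran from 852 to 1324, beside 1177. With library totals 68.0% of them were higher, beside 57.0%. Control and GlcNAc samples were taken in parallel, but no source used here says that a shared number marks a shared day or cage. The deviations of same-numbered libraries from their group means correlated at 0.21, 0.40, 0.15 and -0.06 (mean 0.175). The mean of the other pairs, -0.058, is no separate reference, since deviations from a group mean cancel within the group. The correlation was above 0.1 in 3 of 4 pairs, which is short of every pair, so the numbers were not used as pairs. With the replicate number as a block, 6 of the 8 genes passed the threshold, and 1324 genes in all. The tests on counts that had been listed as alternatives were not run, since the deposited unit is log2 CPM. Atf6, at 145 to 200 reads per library, had the fewest reads of the 8 genes.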
